A study of Mus musculus with 6 samples.

Results

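The genes described here were 46 mouse interferon-stimulated genes, RNA sensors, and IRF and STAT transcription factors. They were chosen by symbol and matched through their Entrez gene identifiers to the deposited count files, which held 27179 identifiers in all. All 46 were found, and 33 of them passed the expression filter among the 12418 genes that entered the tests. The other 13 were too low to test, so counts of called genes below cover 33 members and not the whole list.

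Cells meet viral RNA with sensors such as RIG-I, MDA5 and LGP2, which pass the signal through adaptors to IRF transcription factors and so switch on interferon genes. Secreted type I interferon binds its receptor and activates a complex that holds STAT2 and IRF9 and binds interferon-stimulated response elements (ISRE) in the promoters of interferon-stimulated genes. Interferon gamma acts mainly through gamma-activated sites (GAS), and many of the induced proteins block viral replication or restrain the response itself.

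RNA-seq was performed on A20, a B cell lymphoma line from BALB/C mice, in 3 groups of 2 libraries. Wild-type A20 cells had not been transduced. The other groups carried the lentiviral TETact-v3 activator and an sgRNA, which was either a non-targeting control or directed to the promoter of Cd4, a T cell surface gene, and were studied on day 7 after the sgRNA was introduced. In TETact-v3 a catalytically dead Cas9 with a GCN4 peptide array recruits the catalytic domain of TET1, a DNA demethylating enzyme, while MS2 loops in the sgRNA recruit a p65-hsf1 activator. Both TETact-v3 groups therefore differed from wild-type cells by the vectors, the transduction and the steps used to obtain transduced cells, and these cannot be told apart. The design named the replicates of a group as biological, and all 6 libraries came from a single cell line.

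Library totals ranged from 23194920 to 121623410 counts, with the 2 control sgRNA libraries the deepest, and 3 counts corresponded to between 0.027 and 0.14 CPM, the count scaled to a common library size with TMM factors. Mitochondrial genes took 2.65% and 2.69% of counts in wild-type libraries and between 5.96% and 11.5% in TETact-v3 libraries, with the highest share in control sgRNA replicate 2. Cd4 had 30959 and 40422 counts in the Cd4 sgRNA libraries and at most 127 in any other, which matched the labels. B cell markers were expressed throughout except Ighm, which had no count in any library, and Cd79a, Cd79b and H2-Aa were lower in each TETact-v3 group than in wild-type cells by edgeR. Of 8 T cell markers 1 was tested (Lck, 0.495 to 0.816 CPM), with Cd3e and Cd8b1 at 0 in all libraries, and of 8 macrophage markers 3 were tested (Cd68, 231 to 294 CPM, Adgre1, 0.981 to 4.60 CPM, and Itgam, 0.153 to 1.58 CPM), with Cd14 at 0, and none of these 4 tested genes was called.

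Transcription of the list was uneven in every group. Rsad2, Cmpk2 and Ifitm3, which are strongly interferon-induced antiviral genes in many cells, had no count in any of the 6 libraries. Another 5 members, Oas2, Oasl2, Mx1, Rtp4 and Ifi44, never exceeded 3 counts in a library. Oas1a, Ifit3, Mx2, Gbp7 and Ifi47 reached at most 17, 13, 7, 15 and 5 counts in their highest library and were not tested. The summed level of all 46 members was 1038 and 1024 CPM in wild-type libraries, 1073 and 1092 CPM in control sgRNA libraries and 1068 and 1075 CPM in Cd4 sgRNA libraries. Per kilobase of exon, the highest mean level over the 6 libraries was that of Bst2 (112 CPM per kb), followed by the nucleotide hydrolase Samhd1 (62.8 CPM per kb), the ubiquitin ligase Trim25 (38.4 CPM per kb), the transcription factor Irf3 (34.7 CPM per kb) and Ifi35 (33.9 CPM per kb). The GTPase with the highest level was Gbp3, at 6.09 CPM per kb.

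**Figure D1:**
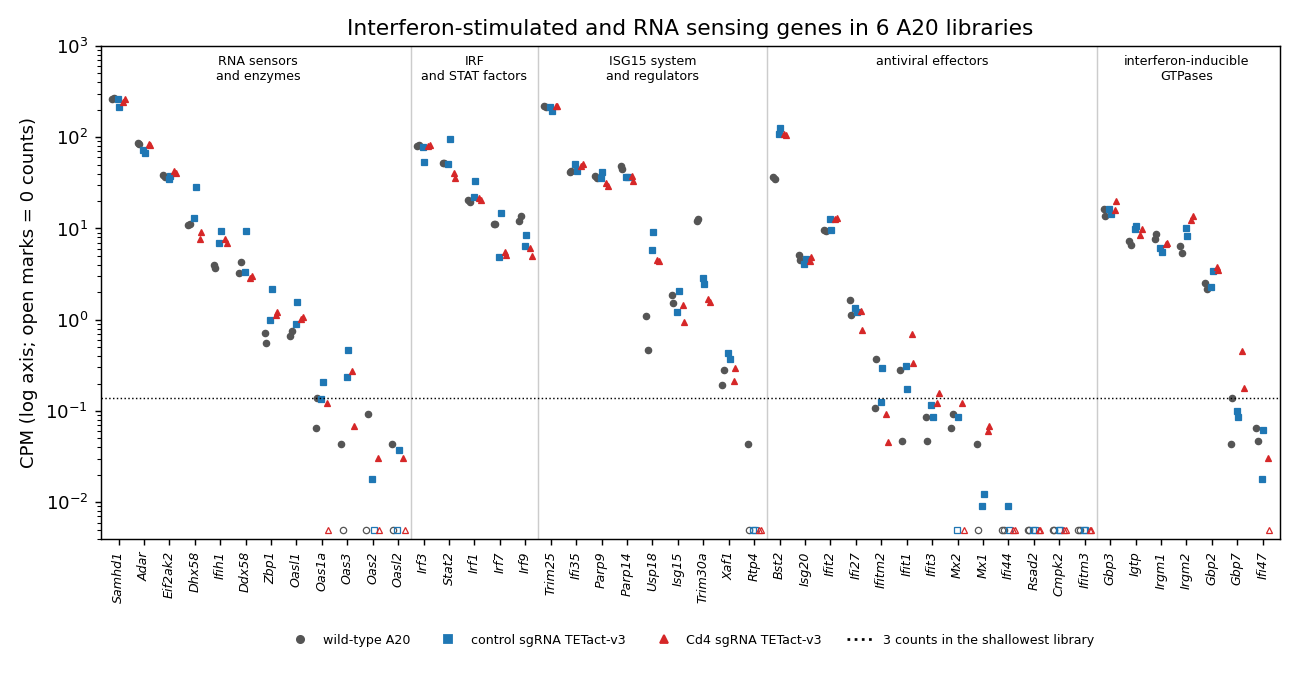
CPM (log axis) of all 46 members in each of the 6 libraries, grouped by role and ordered by level per kilobase; filled marks are libraries with counts, open marks at the bottom are libraries with 0 counts, and the dotted line is the level of 3 counts in the shallowest library (0.14 CPM). Samhd1 and Trim25 lay near or above 200 CPM while Rsad2, Cmpk2 and Ifitm3 were at 0 throughout.

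Against wild-type A20, a few members changed strongly in both TETact-v3 groups while most of the list did not pass the test. Bst2 and Usp18 were higher and Trim30a was lower in both, with Ifih1 and Irgm2 also higher and Irf9 also lower. In control sgRNA cells 5 of 33 members were higher (Bst2, Usp18, Ifih1, Igtp and Irgm2), beside 14.5% of all genes tested, and 3 of 33 were lower (Trim30a, Irf9 and Adar), beside 13.5%. In Cd4 sgRNA cells 4 of 33 were higher (Bst2, Irgm2, Usp18 and Ifih1), beside 9.85% of all genes, and 3 were lower (Trim30a, Irf9 and Parp14), beside 10.7%. The called shares of the tested members were 15.2% (higher) and 9.09% (lower) for control sgRNA and 12.1% and 9.09% for Cd4 sgRNA, near the shares of all genes. The median log2 fold change of the 33 members was 0.13 in control sgRNA cells and 0.02 in Cd4 sgRNA cells, against medians of all genes of -0.0012 and 0.0045. Both comparisons use the same wild-type libraries, and in bulk RNA fewer expressing cells and less RNA per cell cannot be told apart. Calls were made at an adjusted p of 0.05 with the two-sided quasi-likelihood F test of edgeR, adjusted across all genes tested by the Benjamini-Hochberg method.

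**Figure D2:**
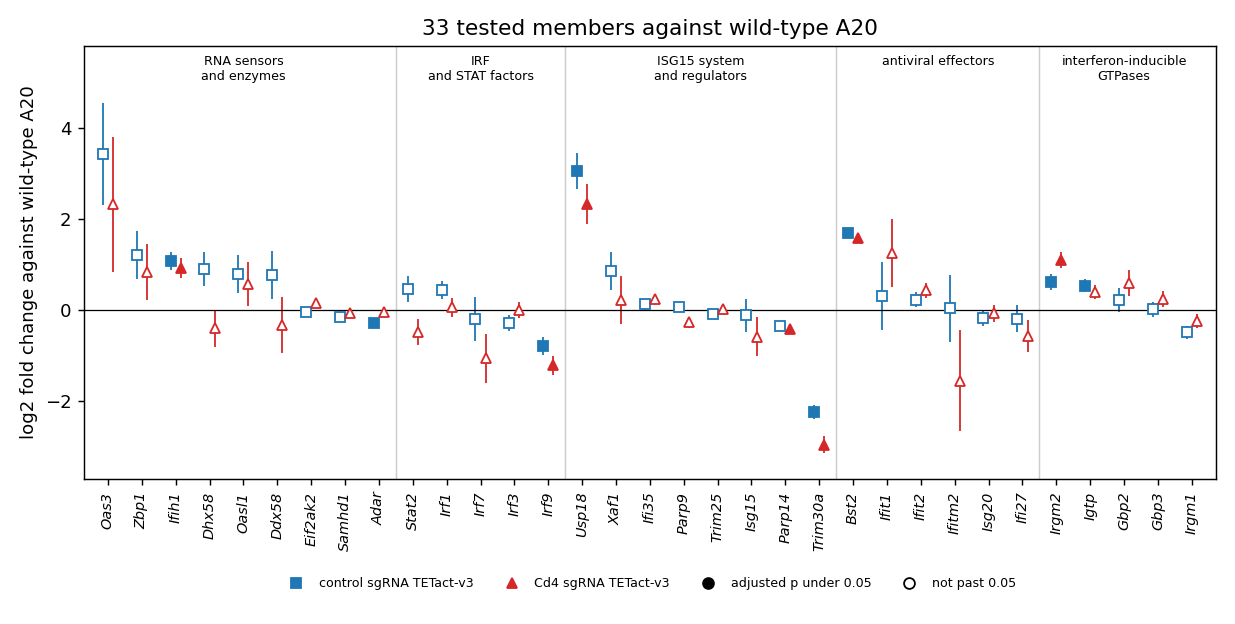
Log2 fold change against wild-type A20 of the 33 tested members, grouped by role, for control sgRNA (squares) and Cd4 sgRNA (triangles) TETact-v3 cells; lines are 1 SE from edgeR and filled marks passed an adjusted p of 0.05. Usp18 and Bst2 lie above 0 and Trim30a below 0 in both groups, and most other members lie within 1 log2 unit of 0.

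Of the RNA sensors, Ifih1 was the member that changed in both groups. Ifih1 encodes MDA5, a sensor of long double-stranded RNA (chr2:62595618-62646255 in GRCm38.p6, the mm10 build). Its level was 3.96 and 3.69 CPM in wild-type libraries, 7.01 and 9.41 CPM in control sgRNA libraries and 7.69 and 7.0 CPM in Cd4 sgRNA libraries. Every TETact-v3 library was above both wild-type libraries. edgeR gave a log2 fold change of 1.08 (SE 0.21, edgeR adjusted p = 0.014) in control sgRNA cells and 0.93 (SE 0.22, edgeR adjusted p = 0.033) in Cd4 sgRNA cells. Both calls were lost when either wild-type library was left out, with adjusted p of up to 0.128 and 0.200, and the Cd4 sgRNA call also without either Cd4 sgRNA library and with voomLmFit of limma (adjusted p = 0.0602).

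The other sensors did not pass the test in either comparison. Ddx58, which encodes RIG-I, a sensor of RNA ends, had 3.25 and 4.30 CPM in wild-type, 3.32 and 9.37 CPM in control sgRNA and 2.84 and 2.98 CPM in Cd4 sgRNA libraries. Dhx58, which encodes LGP2, a relative of both that modulates their signalling, had 10.9 and 11.1 CPM in wild-type, 12.9 and 28.7 CPM in control sgRNA and 7.69 and 9.06 CPM in Cd4 sgRNA libraries. For both genes the highest value was that of control sgRNA replicate 2 alone. The log2 fold change in control sgRNA cells was 0.77 for Ddx58 (SE 0.53, edgeR adjusted p = 0.307) and 0.91 for Dhx58 (SE 0.38, edgeR adjusted p = 0.118). Zbp1, a sensor of Z-form nucleic acid, had 0.710 and 0.560 CPM in wild-type, 0.999 and 2.18 CPM in control sgRNA, and 1.13 and 1.22 CPM in Cd4 sgRNA libraries, and passed in neither comparison.

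Among the RNA-acting enzymes, Adar, which edits adenosines in double-stranded RNA and keeps self RNA from the sensors, was slightly lower in control sgRNA cells (chr3:89714469-89753455). It had 85.4 and 84.4 CPM in wild-type libraries, 72.3 and 66.9 CPM in control sgRNA libraries and 84.6 and 81.8 CPM in Cd4 sgRNA libraries. The control sgRNA libraries lay below all others. Against wild-type the log2 fold change was -0.29 (SE 0.08, edgeR adjusted p = 0.048) in control sgRNA cells and -0.03 (SE 0.08, edgeR adjusted p = 0.821) in Cd4 sgRNA cells. The control sgRNA call held in 8 of 17 alternatives and was lost with voomLmFit (adjusted p = 0.0538) and without any 1 wild-type or Cd4 sgRNA library (adjusted p up to 0.301), among others. Samhd1 ranged from 216 to 266 CPM, and Eif2ak2, which encodes the double-stranded RNA kinase PKR, from 35.2 to 43.2 CPM over the 6 libraries, and neither passed the test in any comparison. Of the 2'-5' oligoadenylate synthetase family, which responds to double-stranded RNA, Oasl1 lay between 0.667 and 1.58 CPM and Oas3 between 0 and 0.470 CPM. Oas3 had a log2 fold change of 3.42 in control sgRNA cells (SE 1.12, edgeR adjusted p = 0.056), on 2 counts in wild-type replicate 1 and none in replicate 2.

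Of the IRF and STAT factors, Irf9 was the member that changed. Irf9 encodes the DNA-binding part of the complex that forms with STAT2 after type I interferon (chr14:55603985-55610030). Its level was 12.2 and 13.5 CPM in wild-type libraries, 6.41 and 8.53 CPM in control sgRNA libraries, and 6.13 and 5.04 CPM in Cd4 sgRNA libraries. All 4 TETact-v3 libraries were below both wild-type libraries. This amounted to a log2 fold change of -0.78 (SE 0.19, edgeR adjusted p = 0.028) in control sgRNA cells and -1.21 (SE 0.21, edgeR adjusted p = 0.014) in Cd4 sgRNA cells. Both calls were lost when any wild-type or Cd4 sgRNA library was left out, with adjusted p of up to 0.173 and 0.143, and the control sgRNA call also in a fit of the 2 groups alone (0.0649).

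Its partner Stat2 had 52.2 and 52.6 CPM in wild-type, 50.3 and 94.9 CPM in control sgRNA and 40.0 and 35.9 CPM in Cd4 sgRNA libraries. Irf7, the interferon-inducible amplifier of type I interferon transcription, had 11.1 and 11.1 CPM in wild-type, 4.89 and 14.7 CPM in control sgRNA and 5.58 and 5.11 CPM in Cd4 sgRNA libraries. The control sgRNA replicates lay on opposite sides of the wild-type level for both genes, and neither passed the test. Without control sgRNA replicate 2 the log2 fold change of Irf7 in control sgRNA cells was -1.18, and without replicate 1 it was 0.43, so its direction rested on which library was kept. Irf3, the latent factor that sensors activate, ranged from 54.0 CPM in control sgRNA replicate 2 to 82.1 CPM in wild-type replicate 2, and Irf1 from 19.7 to 33 CPM, its highest value again in control sgRNA replicate 2.

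In the ISG15 system, Usp18 had the largest increase of the list that passed the test. Usp18 removes ISG15 from proteins and dampens signalling from the type I interferon receptor (chr6:121245906-121270917). Its level was 1.10 and 0.467 CPM in wild-type, 5.77 and 9.10 CPM in control sgRNA and 4.55 and 4.38 CPM in Cd4 sgRNA libraries. The lowest TETact-v3 library was above both wild-type libraries. The log2 fold change was 3.06 (SE 0.40, edgeR adjusted p = 0.0048) in control sgRNA cells and 2.33 (SE 0.44, edgeR adjusted p = 0.018) in Cd4 sgRNA cells. Leaving out wild-type replicate 1 ended the first call (adjusted p = 0.0618), and leaving out any wild-type or Cd4 sgRNA library ended the second (adjusted p up to 0.122). Isg15, the ubiquitin-like modifier itself, lay between 0.949 and 2.09 CPM and passed in neither comparison.

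Trim30a showed the opposite direction. It encodes an interferon-inducible TRIM protein known as a brake on NF-kB signalling (chr7:104409025-104465193). Its level was 12.1 and 12.8 CPM in wild-type, 2.83 and 2.45 CPM in control sgRNA and 1.68 and 1.56 CPM in Cd4 sgRNA libraries. No TETact-v3 library reached a wild-type value. edgeR gave a log2 fold change of -2.23 (SE 0.15, edgeR adjusted p = 9.32e-04) in control sgRNA cells and -2.95 (SE 0.18, edgeR adjusted p = 8.79e-04) in Cd4 sgRNA cells, and both calls held in all 17 alternatives. Trim30a has close paralogs beside it that can share reads.

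Of the other regulators, Parp14, an ADP-ribosyltransferase, had 48.5 and 44.7 CPM in wild-type, 36.8 and 36.6 CPM in control sgRNA and 37.9 and 32.7 CPM in Cd4 sgRNA libraries (chr16:35831892-35871518). All TETact-v3 libraries were lower than the wild-type libraries. Against wild-type the log2 fold change was -0.35 (SE 0.11, edgeR adjusted p = 0.054) in control sgRNA cells and -0.41 (SE 0.11, edgeR adjusted p = 0.045) in Cd4 sgRNA cells, and the latter call held in 9 of 17 alternatives and was lost with voomLmFit (adjusted p = 0.0502) and without any 1 wild-type or Cd4 sgRNA library (adjusted p up to 0.315), among others. Trim25, the ubiquitin ligase of the RIG-I pathway, ranged from 196 to 221 CPM, Ifi35 from 41.8 to 51.4 CPM, Parp9 from 29.2 to 41.1 CPM and Xaf1 from 0.194 to 0.432 CPM over the 6 libraries, and none of these passed the test.

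Of the antiviral effectors, Bst2 was the member that changed. Bst2, also called tetherin, holds budding virus particles at the cell surface (chr8:71534255-71537472). Its level was 36.9 and 34.4 CPM in wild-type, 107 and 126 CPM in control sgRNA and 108 and 106 CPM in Cd4 sgRNA libraries. Every TETact-v3 library was far above both wild-type libraries, and the 4 values lay close together. This amounted to a log2 fold change of 1.71 (SE 0.11, edgeR adjusted p = 8.28e-04) in control sgRNA cells and 1.59 (SE 0.11, edgeR adjusted p = 0.0013) in Cd4 sgRNA cells, and both calls held in all 17 alternatives. Bst2 is also a marker of plasmacytoid dendritic cells, of whose other markers Siglech, Ccr9, Klk1 and Clec4b1 reached at most 7 counts in a library and Tcf4 had between 7041 and 30377 counts.

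The remaining effectors were low and passed in neither comparison. Ifit2, which binds RNA and restrains translation, ranged from 9.39 to 13.0 CPM, and its TETact-v3 libraries were all above wild-type by a small margin (log2 fold change 0.23 and 0.43 with edgeR adjusted p of 0.312 and 0.113). Isg20, an exonuclease, ranged from 4.03 to 5.12 CPM, Ifi27 from 0.768 to 1.64 CPM, Ifit1 from 0.0467 to 0.702 CPM and Ifitm2 from 0.0452 to 0.374 CPM. The summed level of the 13 effectors was 53.8 and 50.0 CPM in wild-type libraries and between 125 and 142 CPM in TETact-v3 libraries, and Bst2 made up most of each sum.

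**Figure D3:**
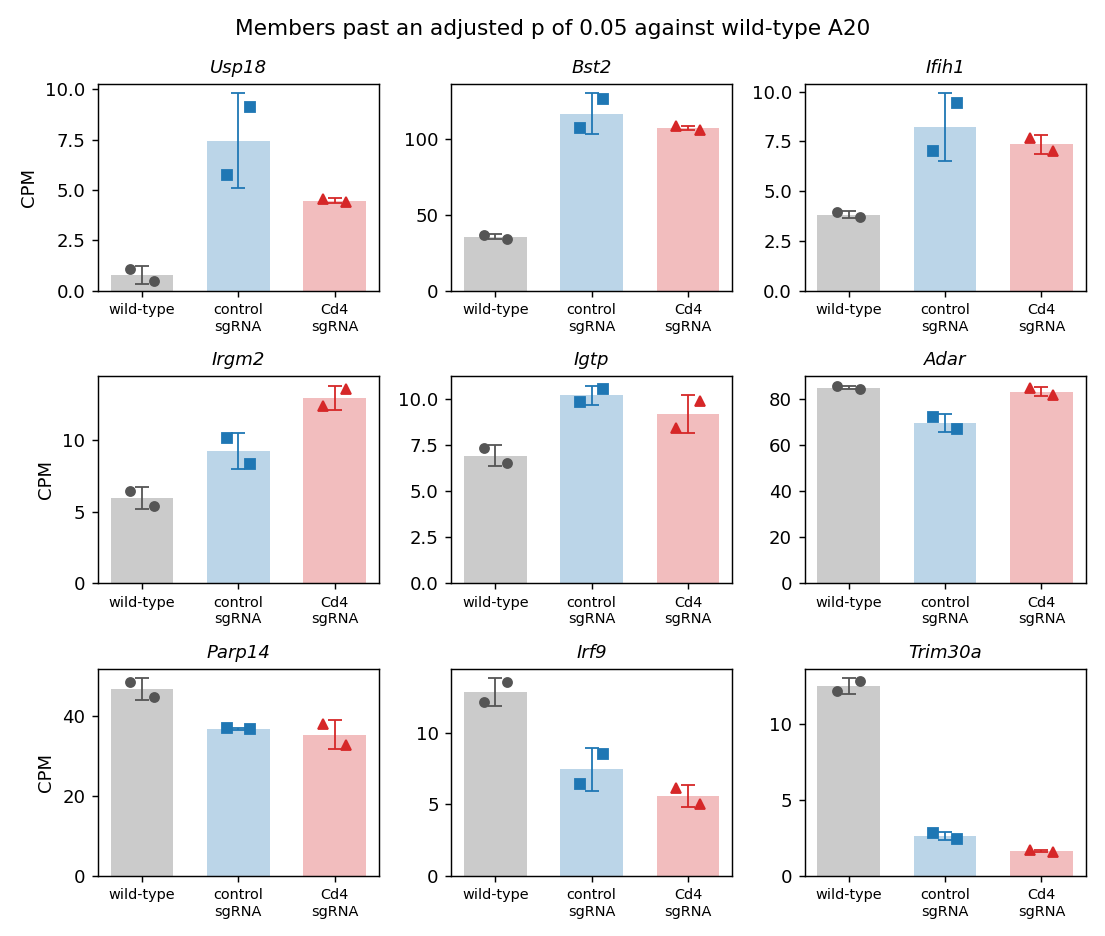
CPM of the 9 members that passed an adjusted p of 0.05 in at least 1 comparison with wild-type A20; bars are group means, error bars 1 SD and points the 2 libraries of each group. Usp18, Bst2, Ifih1 and Irgm2 are higher and Trim30a and Irf9 lower in both TETact-v3 groups, while Adar and Igtp passed in the control sgRNA comparison and Parp14 in the Cd4 sgRNA comparison.

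Of the interferon-inducible GTPases, which act on vacuoles that hold pathogens, Irgm2 was higher in both groups (chr11:58214977-58222783). Its level was 6.48 and 5.42 CPM in wild-type, 10.1 and 8.34 CPM in control sgRNA and 12.4 and 13.5 CPM in Cd4 sgRNA libraries. All TETact-v3 libraries were above wild-type. The log2 fold change was 0.62 (SE 0.17, edgeR adjusted p = 0.041) in control sgRNA cells and 1.10 (SE 0.17, edgeR adjusted p = 0.011) in Cd4 sgRNA cells. Its neighbour Igtp (chr11:58199556-58207592), which encodes IRGM3, had 7.34 and 6.54 CPM in wild-type, 9.85 and 10.6 CPM in control sgRNA and 8.45 and 9.92 CPM in Cd4 sgRNA libraries. For Igtp too the groups did not overlap with wild-type, and the log2 fold change was 0.54 (SE 0.15, edgeR adjusted p = 0.040) in control sgRNA cells and 0.40 (SE 0.16, edgeR adjusted p = 0.118) in Cd4 sgRNA cells. The Irgm2 and Igtp calls in control sgRNA cells were lost when any 1 wild-type or Cd4 sgRNA library was left out. They were also lost with the replicate block (edgeR adjusted p = 0.0527 and 0.0626) and in a fit of the 2 groups alone (0.101 and 0.0896). That of Irgm2 was lost with voomLmFit too (adjusted p = 0.0565). In Cd4 sgRNA cells the Irgm2 call held in 13 of 17 alternatives, with log2 fold changes of 1.025 to 1.281. It was lost only when 1 wild-type or Cd4 sgRNA library was left out.

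Irgm1, the third tested immunity-related GTPase of the list, lies elsewhere on the same chromosome (chr11:48865245-48871420). It had 7.58 and 8.78 CPM in wild-type, 6.06 and 5.49 CPM in control sgRNA and 6.84 and 6.96 CPM in Cd4 sgRNA libraries. All TETact-v3 values were below wild-type, opposite to Igtp and Irgm2, with a log2 fold change of -0.48 in control sgRNA cells (edgeR adjusted p = 0.053) and -0.23 in Cd4 sgRNA cells (edgeR adjusted p = 0.324). Of the guanylate-binding proteins, Gbp3 ranged from 13.5 to 19.9 CPM and Gbp2 from 2.20 to 3.78 CPM, and neither passed the test. The GTPases form families of related sequence that can share reads.

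Promoters of some members are shown with the letters of ISRE and GAS, the elements described above for interferon signalling. Whether interferon signalling acts on these members through such letters was not tested. Sequences are RefSeq windows of GRCm38.p6, from 250 bases before to 50 after an annotated start, written along the gene's strand with capitals for matches to the ISRE letters (GAAA, any 2 bases and GAAA again, searched on both strands so that the other strand reads TTTC, any 2 bases and TTTC) or the GAS letters TTCNNNGAA, which read the same on both strands. Matches of either motif may overlap. The windows are those of Bst2 (chr8:71537423-71537722, minus strand), Ifih1 (chr2:62646206-62646505, minus), Igtp (chr11:58199306-58199605, plus), Irgm2 (chr11:58214727-58215026, plus) and Trim30a (chr7:104465144-104465443, minus, 1 of 2 windows), followed by Rsad2 (chr12:26456403-26456702, minus) and Ifit3 (chr19:34583279-34583578, plus), 2 untested members that also hold matches.
Bst2: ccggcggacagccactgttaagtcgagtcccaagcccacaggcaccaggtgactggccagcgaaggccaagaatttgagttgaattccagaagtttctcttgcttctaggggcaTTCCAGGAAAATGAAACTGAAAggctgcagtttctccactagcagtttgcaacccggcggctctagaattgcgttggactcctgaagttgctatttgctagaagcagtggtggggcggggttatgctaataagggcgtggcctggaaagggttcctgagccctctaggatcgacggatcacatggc
Ifih1: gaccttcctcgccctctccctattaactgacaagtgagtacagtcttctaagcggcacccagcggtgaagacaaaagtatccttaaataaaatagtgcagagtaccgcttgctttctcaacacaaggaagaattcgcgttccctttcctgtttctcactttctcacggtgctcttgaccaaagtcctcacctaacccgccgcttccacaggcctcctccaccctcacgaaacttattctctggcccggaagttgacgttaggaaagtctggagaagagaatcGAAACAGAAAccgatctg
Igtp: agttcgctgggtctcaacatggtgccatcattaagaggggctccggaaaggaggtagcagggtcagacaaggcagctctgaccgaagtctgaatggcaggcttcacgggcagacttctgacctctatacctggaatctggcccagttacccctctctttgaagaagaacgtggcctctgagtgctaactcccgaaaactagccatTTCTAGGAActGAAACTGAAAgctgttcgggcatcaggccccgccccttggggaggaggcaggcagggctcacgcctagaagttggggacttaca
Irgm2: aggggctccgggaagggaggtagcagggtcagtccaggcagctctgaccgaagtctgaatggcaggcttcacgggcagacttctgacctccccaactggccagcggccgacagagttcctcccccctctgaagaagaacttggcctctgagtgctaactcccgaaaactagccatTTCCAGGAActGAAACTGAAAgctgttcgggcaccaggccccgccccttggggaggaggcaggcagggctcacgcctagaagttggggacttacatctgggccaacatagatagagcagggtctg
Trim30a: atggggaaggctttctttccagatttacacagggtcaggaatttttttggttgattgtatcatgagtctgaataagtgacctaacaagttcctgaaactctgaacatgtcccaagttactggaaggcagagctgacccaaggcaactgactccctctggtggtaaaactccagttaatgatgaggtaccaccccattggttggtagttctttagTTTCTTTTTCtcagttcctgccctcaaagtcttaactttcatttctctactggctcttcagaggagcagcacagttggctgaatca
Rsad2: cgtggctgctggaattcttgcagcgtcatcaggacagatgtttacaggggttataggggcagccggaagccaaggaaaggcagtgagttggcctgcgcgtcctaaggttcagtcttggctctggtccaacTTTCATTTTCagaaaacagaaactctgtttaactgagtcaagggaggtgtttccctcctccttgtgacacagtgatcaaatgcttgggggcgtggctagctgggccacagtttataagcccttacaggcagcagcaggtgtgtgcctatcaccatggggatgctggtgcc
Ifit3: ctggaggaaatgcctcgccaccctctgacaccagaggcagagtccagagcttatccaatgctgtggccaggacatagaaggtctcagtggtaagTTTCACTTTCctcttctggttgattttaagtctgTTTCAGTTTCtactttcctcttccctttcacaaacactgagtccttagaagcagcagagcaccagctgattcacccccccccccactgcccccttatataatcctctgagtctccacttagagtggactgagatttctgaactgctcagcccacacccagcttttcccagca

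Higher, lower and silent members all held such letters. The Bst2 window held a GAS match 136 bases before the start that overlaps the first of 2 overlapping ISRE matches at 130 and 124 bases before it. Trim30a, which was lower, held an ISRE match 36 bases before the start, and Rsad2, with no count in any library, held one 120 bases before it. The windows of Igtp and Irgm2, a neighbouring pair, each held a GAS match followed by an ISRE match. In their best alignment without gaps, at a shift of 30 bases, 184 of 270 bases were identical (68.1%). Stretches that match at another shift were not counted in this share. Neither of the 2 windows of Irf9 held a match. Promoter windows were at hand for 36 of the 46 members (45 windows), and Mx2, Usp18, Rtp4, Parp14, Ifi27, Dhx58, Parp9, Oas2, Mx1 and Zbp1 had none.

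Over the members' windows, 21 of 45 (46.7%) held the ISRE letters, beside 3.44% of all 32851 windows, and 13 (28.9%) held the GAS letters, beside 8.3%. The share with ISRE letters was 44.4% of the 36 windows of tested members and 55.6% of the 9 windows of untested members, and both expressed and silent members were among those with a match. The median number of CpG per window was 8.5 for tested members and 20 for all tested genes, and 5 for untested members and 4 for all untested genes. A match is a run of letters and not a measured binding site.

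**Figure D4:**
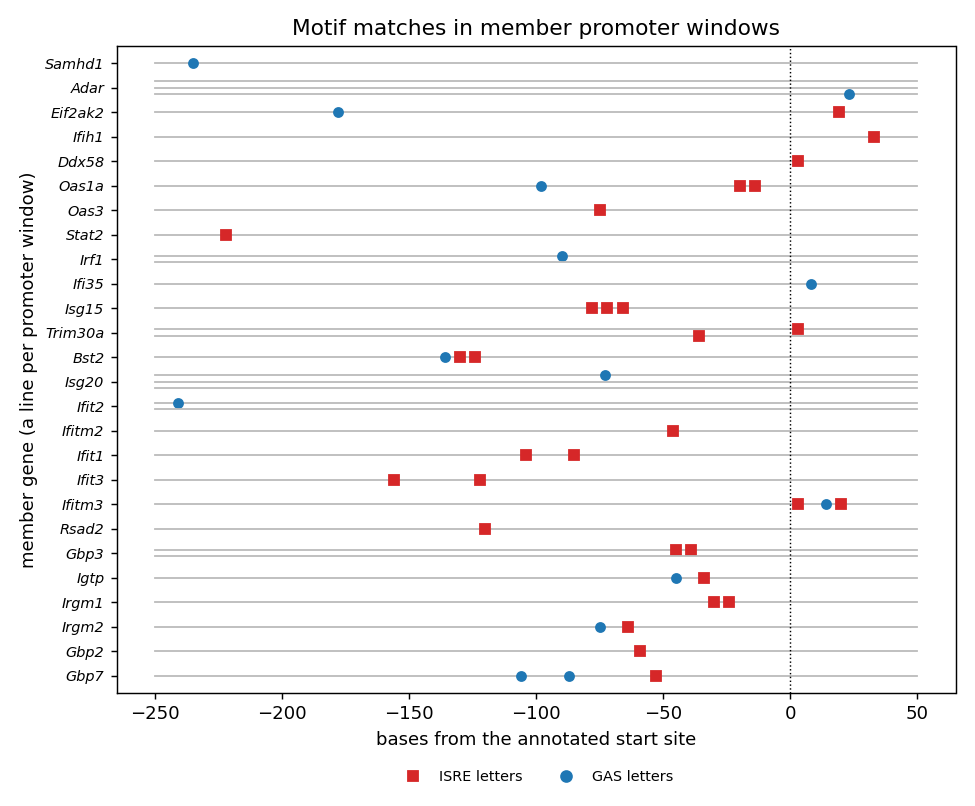
Positions of ISRE letters (squares) and GAS letters (circles) in the promoter windows of the 26 member genes with at least 1 match, in bases from the annotated start site (dotted line); each grey line is a window, and genes are ordered by role and level. Members at 0 counts such as Rsad2 and Ifitm3 hold matches as do Bst2, Igtp and Irgm2.

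The 2 control sgRNA libraries differed from each other in many members. Replicate 2 exceeded replicate 1 by more than 1.5-fold in 11 of 33 members, beside 13.4% of all genes tested, and was lower by more than 1.5-fold in 1 member (Ifit1), beside 6.35%. The largest ratios were 3.0-fold for Irf7, 2.82-fold for Ddx58, 2.26-fold for Ifitm2, 2.23-fold for Dhx58, 2.17-fold for Zbp1, 1.97-fold for Oas3 and 1.89-fold for Stat2. The Ifitm2 ratio rested on 14 and 24 counts in replicates 1 and 2, and the Oas3 ratio on 26 and 38 counts. The wild-type replicates, with at most 8 counts, differed more for both genes (log2 ratios of 1.71 and -2.41, replicate 2 over 1). Control sgRNA replicate 2 held the highest of all 6 values in 14 of 33 members (42.4%), beside 27.4% of all genes tested. The median of the 33 members relative to the wild-type mean was 0.37 on the log2 scale in control sgRNA replicate 2 and between -0.02 and 0.02 in each other library. In the same library mitochondrial genes took 11.5% of counts, and the summed level of 7 fibroblast markers was 10.3 CPM. That sum was 5.43 CPM in control sgRNA replicate 1 and 1.16 to 1.65 CPM elsewhere. Pdgfrb alone made up most of both control sgRNA sums (9.77 CPM in replicate 2 and 5.06 CPM in replicate 1). It was the 1 marker tested and was higher in control sgRNA cells. Col1a1 and Dcn were slightly lower in replicate 2 than in replicate 1, and Pdgfra and Col3a1 were higher. These were at most 0.247 CPM in either, and Col1a2 and Lum were at 0 in all libraries. The macrophage markers Itgam and Adgre1 were at 1.58 and 4.60 CPM in control sgRNA replicate 2. They were at 0.333 and 0.981 CPM in replicate 1 and at most 0.344 and 3.83 CPM elsewhere. The summed level of 8 macrophage markers was 300.4 CPM, against 252.9 CPM in replicate 1 and 233.6 to 239.9 CPM elsewhere. Cd68 alone made up most of each sum (294 CPM in replicate 2, 251 CPM in replicate 1 and 231 to 236 CPM elsewhere). Csf1r, Mrc1 and Marco were higher in replicate 2 than in replicate 1 and Lyz2 was lower. These 4 markers had at most 16 counts in a library, and Cd14 was at 0. The part of these in the difference was not tested. Without replicate 2 the median log2 fold change of the members in control sgRNA cells was -0.0238, and without replicate 1 it was 0.268.

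**Figure D5:**
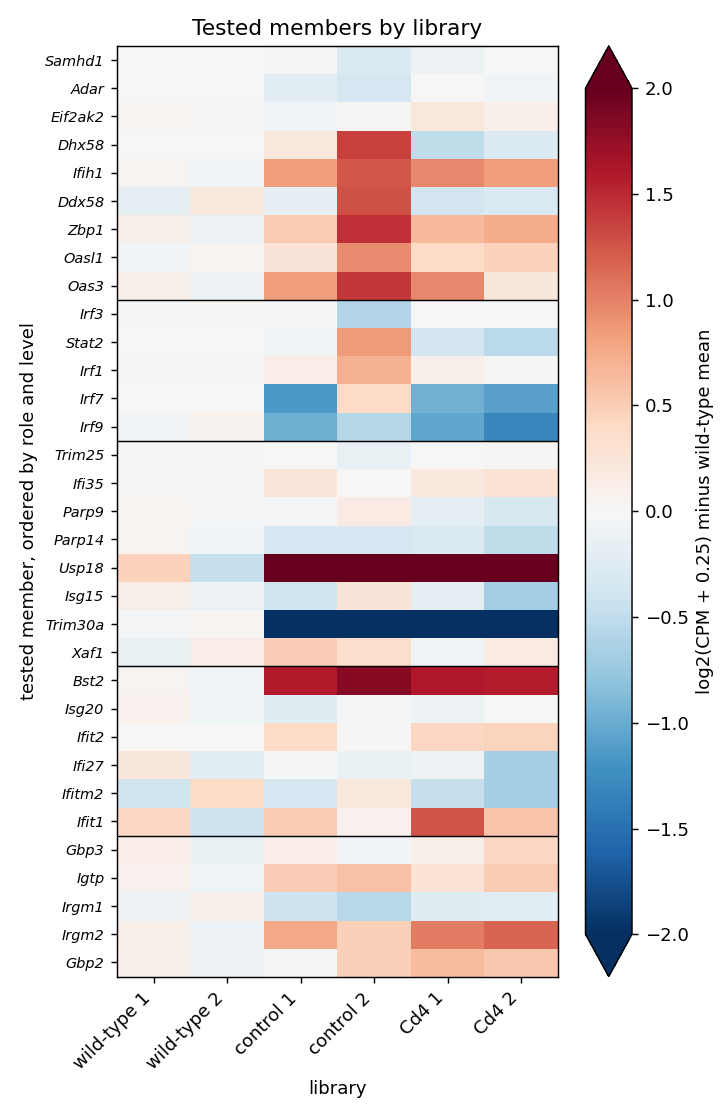
Difference of log2(CPM + 0.25) from the wild-type mean for the 33 tested members (rows, by role and level) in each library (columns); colours are limited at 2 log2 units in either direction. Control sgRNA replicate 2 stands above replicate 1 for Dhx58, Ddx58, Zbp1, Stat2 and Irf7, while Bst2, Usp18 and Trim30a have the same direction in all 4 TETact-v3 libraries.

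Between the 4 TETact-v3 libraries and the 2 wild-type libraries, 9 of 33 members did not overlap and were higher (27.3%), beside 25.2% of all genes tested. These were Bst2, Ifih1, Ifit2, Igtp, Irgm2, Oas3, Oasl1, Usp18 and Zbp1. Another 4 did not overlap and were lower (12.1%), beside 25.9%, namely Irf9, Irgm1, Parp14 and Trim30a. The count of higher members was thus near the background, and that of lower members under it.

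Cd4 sgRNA cells were compared with control sgRNA cells to ask whether members responded to the targeting sgRNA. By edgeR 0 of 33 members were higher, beside 0.0242% of all genes tested, and 0 were lower, beside 0.0483%. At an unadjusted p under 0.05 there were 7 members, while 24.9% of all genes tested were under it. voomLmFit also called 0 members, and DESeq2 called Dhx58, Stat2 and Trim30a lower. The median log2 fold change of the members was -0.16, against -0.0078 for all genes. For Trim30a the log2 fold change was -0.72 (SE 0.19, edgeR adjusted p = 0.134), for Stat2 -0.93 (SE 0.28, edgeR adjusted p = 0.149) and for Irgm2 0.48 (SE 0.15, edgeR adjusted p = 0.156). Bst2 had a log2 fold change of -0.12 with an SE of 0.10 (edgeR adjusted p = 0.471).

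Transcripts of the interferons themselves were at or near 0. Of 12 ligand genes none passed the expression filter, none exceeded 3 counts in a library, and Ifnb1 had no count in any. The receptors and kinases were expressed, and of 11 tested 1 was higher and 3 were lower in control sgRNA cells, and 1 was higher and 2 were lower in Cd4 sgRNA cells. These shares were 9.09% and 27.3% in control sgRNA cells, beside 14.5% and 13.5% of all genes, and 9.09% and 18.2% in Cd4 sgRNA cells, beside 9.85% and 10.7%. Ifnar1, a chain of the type I interferon receptor, had 63.5 and 65.4 CPM in wild-type, 48.3 and 51.7 CPM in control sgRNA and 51.4 and 51.4 CPM in Cd4 sgRNA libraries, and was lower in both (log2 fold change -0.36 and -0.33, edgeR adjusted p of 0.025 and 0.044). The other chain, Ifnar2, did not pass (log2 fold change -0.28 and -0.51, edgeR adjusted p of 0.184 and 0.053). Stat3 was higher in control sgRNA cells (log2 fold change 0.44, edgeR adjusted p = 0.023).

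The next group holds genes that act between sensing and interferon transcription. Of 15 tested adaptors, kinases and other sensors, 2 rose and 7 fell in control sgRNA cells, and 1 rose and 3 fell in Cd4 sgRNA cells. As shares these were 13.3% and 46.7% (all genes 14.5% and 13.5%) and 6.67% and 20% (all genes 9.85% and 10.7%). Mb21d1, which encodes the DNA sensor cGAS, had 2.73 and 2.85 CPM in wild-type, 0.837 and 0.853 CPM in control sgRNA and 0.610 and 0.542 CPM in Cd4 sgRNA libraries, with log2 fold changes of -1.72 and -2.28 (edgeR adjusted p of 0.0035 and 0.0045). Tmem173, which encodes STING, the adaptor below cGAS, had 241 and 251 CPM in wild-type, 150 and 157 CPM in control sgRNA and 174 and 180 CPM in Cd4 sgRNA libraries. Both were below wild-type in every TETact-v3 library, and Tmem173 was also called lower in both comparisons (log2 fold change -0.68 and -0.47, edgeR adjusted p of 0.0038 and 0.014). Tlr9, the endosomal receptor for CpG DNA, was called lower in control sgRNA cells (log2 fold change -1.21, edgeR adjusted p = 0.0097) and had a log2 fold change of -0.13 in Cd4 sgRNA cells (edgeR adjusted p = 0.659). Mavs, the adaptor shared by RIG-I and MDA5, did not pass (log2 fold change -0.28 and -0.33, edgeR adjusted p of 0.101 and 0.082).

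Of the other IRF factors and brakes, 10 were tested, of which 2 rose and 2 fell in control sgRNA cells and 2 rose and 1 fell in Cd4 sgRNA cells, beside 14.5% and 13.5% of all genes in the first comparison and 9.85% and 10.7% in the second. Irf4, a B and plasma cell factor, had 33.3 and 34.5 CPM in wild-type and between 93.9 and 145 CPM in TETact-v3 libraries (log2 fold change 1.82 and 1.69, edgeR adjusted p of 0.0036 and 0.0064). Irf8 had 754 and 767 CPM in wild-type and between 281 and 453 CPM in TETact-v3 libraries (log2 fold change -1.01 and -1.38, edgeR adjusted p of 0.013 and 0.0082). The DNA exonuclease Trex1, a brake on cGAS, was called lower in control sgRNA cells (log2 fold change -0.77, edgeR adjusted p = 0.0076), with a log2 fold change of -0.39 in Cd4 sgRNA cells (edgeR adjusted p = 0.065). Ptpn6, a phosphatase, was called higher in Cd4 sgRNA cells (log2 fold change 0.46, edgeR adjusted p = 0.017).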

How the data were processed

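The 6 A20 libraries fall into 3 groups of 2, with groups and replicate numbers taken from the sample labels. The authors used Rsubread to map paired-end reads of 66 bp to the mm10 genome and featureCounts to count reads for each Entrez gene, and the deposited values are raw counts without normalization. Whether strand was used in counting is not given in the sources used here, so 16 members whose spans overlap another annotated gene, among them Usp18, Trim30a, Ifih1 and Adar, may hold reads of it.

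Genes without a unique symbol and mitochondrial, rRNA and other-type genes were removed, filterByExpr was applied, and libraries were scaled by TMM. edgeR 4.0.16 (glmQLFit and glmQLFTest, robust, 1 term per group over all 6 libraries, R 4.3.3) gave log2 fold changes, and p-values were adjusted by Benjamini-Hochberg over 12418 genes. Limma 3.58.1 (voomLmFit) and DESeq2 1.42.0 were alternatives, beside other scalings and filters, thinned control sgRNA counts, the replicate block, each library left out and the 2 groups alone. A crossed block was added after the data were seen. The scripts were tested on simulated counts. Ratios between control sgRNA replicates used an offset of 0.01 CPM. With 2 libraries per group, p-values rest on the spread of all genes and libraries, and counting error is smallest in the deepest libraries. Members, lists and the rule for named genes were chosen with earlier results of these data known. Members past the threshold in any comparison and the 2 of highest level per kilobase in each role were named, as were up to 5 other pathway genes per direction and comparison by smallest p, and Ifnar1, Ifnar2, Ifnb1 and Mavs, and a few genes that fall under this rule are not reported here. The remaining members were given by range. A table of the whole series that repeats the counts was not used.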

Additional observations from a re-analysis of the deposited data

Results flagged for a closer look

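Dhx58 lay on opposite sides of wild-type A20 in the TETact-v3 groups. Both control sgRNA libraries were above both wild-type libraries (12.9 and 28.7 CPM against 10.9 and 11.1 CPM) and both Cd4 sgRNA libraries were below them (7.69 and 9.06 CPM). The difference between the TETact-v3 groups was a log2 fold change of -1.30 and did not pass edgeR's test (adjusted p = 0.147), whereas DESeq2 called it. Without control sgRNA replicate 2 it was -0.61, with the remaining control library assumed to vary like the other groups.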

How the results depend on the processing

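The 15 member calls against wild-type were recomputed under 17 alternatives each, and of 255 values 200 passed the threshold, 55 did not and 0 changed sign. Bst2 and Trim30a passed in all of them in both comparisons. In control sgRNA cells against wild-type, 5 members were lower with DESeq2 and with the stricter filter, and with the 2 groups alone 3 were higher and 1 lower. In Cd4 sgRNA cells against wild-type the 2 groups alone gave 9 higher and 8 lower. Against control sgRNA cells DESeq2 called 3 members lower, and 538 genes higher and 889 lower in the whole table, where edgeR called 3 and 6, the other alternatives that kept all libraries gave 1 to 5 higher and 5 to 13 lower, and the 2 groups alone gave 1 and 0. With the 2 groups alone the whole table gave 835 genes higher and 736 lower in control sgRNA cells against 1803 and 1674, and 3768 and 3684 in Cd4 sgRNA cells against 1223 and 1327. With the replicate number as a block 3 members were higher in control sgRNA cells. Same-numbered libraries did not deviate together (correlations of -0.0352, 0.0138 and -0.137), so the block shares only a number, and crossed numbers called 0 members between the TETact-v3 groups. Leaving out 1 library in turn gave 1 to 15 members higher and 1 to 7 lower in control sgRNA cells (median log2 fold change -0.0238 to 0.268), 1 to 10 higher and 1 to 7 lower in Cd4 sgRNA cells, and 0 to 10 higher and 0 to 16 lower between the TETact-v3 groups (median -0.325 to -0.0071). Over the whole table these fits called 61 to 4125 genes higher and 53 to 3946 lower in control sgRNA cells, 41 to 4087 and 29 to 3668 in Cd4 sgRNA cells, and 1 to 3837 and 0 to 3897 between the TETact-v3 groups. The lowest counts against wild-type came without wild-type replicate 1. The highest counts came without control sgRNA replicate 1, except 3668, which came without control sgRNA replicate 2. In both fits the lone control library is assumed to vary like the other groups. Members under 3 counts are limited by depth, most of all in wild-type replicate 2.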

Other observations

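A further 48 interferon-stimulated genes outside the list were examined, and 32 were tested. In each TETact-v3 group 4 were higher and 7 lower than in wild-type cells (12.5% and 21.9%), beside 14.5% and 13.5% of all genes tested for control sgRNA and 9.85% and 10.7% for Cd4 sgRNA cells. Lgals9, which encodes galectin-9, had 0.129 and 0.140 CPM in wild-type and between 0.855 and 1.12 CPM in TETact-v3 libraries. It was higher in both groups (log2 fold change 2.92 and 2.77, edgeR adjusted p of 0.0054 and 0.012), on only 6 and 3 counts in the wild-type libraries. Uba7, the activating enzyme of ISG15 conjugation, had 7.40 and 7.85 CPM in wild-type and between 11.2 and 13.0 CPM in TETact-v3 libraries and was higher in both (edgeR adjusted p of 0.017 and 0.021). The nuclear body gene Sp110 was lower in both (log2 fold change -0.60 and -0.88, edgeR adjusted p of 0.017 and 0.0088), as was Ifi27l2a (-1.05 and -1.91, edgeR adjusted p of 0.043 and 0.018), whose span overlaps that of Ifi27. Psmb10, an immunoproteasome subunit, was higher in Cd4 sgRNA cells (log2 fold change 0.72, edgeR adjusted p = 0.021).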
